A study of Homo sapiens with 6 samples.

Results

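Integrins are receptors that span the cell membrane and join the extracellular matrix to the actin cytoskeleton, and laminins are matrix proteins of basement membranes to which several integrins bind. The genes described here are 12 integrin alpha chains, 8 integrin beta chains and 10 laminin chains, taken by gene symbol from a fixed list, and all 30 were found among the 58735 genes of the expression table. A375, an established line of human melanoma cells, gave polyadenylated RNA for 2 groups of 3 libraries. One group received the solvent DMSO and the other CuB, which the series title writes out as cucurbitacin B, a plant triterpenoid, and RNA was collected after 6 h in both. The protocol gives 0.2 µM CuB and the library names 100 nM, so the dose is uncertain. Whether replicates were grown as separate cultures is not labelled. The p-values therefore rest only on the spread between the libraries, which may be technical, and they describe 1 cell line. In bulk RNA, fewer cells of a kind and less RNA per cell cannot be told apart.

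An integrin works as a pair of 1 alpha and 1 beta chain. ITGB1 pairs with most alpha chains, ITGB4 with ITGA6, and ITGB3, ITGB5, ITGB6 and ITGB8 with ITGAV. The alpha chain largely sets the ligand: ITGA1, ITGA2, ITGA10 and ITGA11 serve collagen receptors, ITGA3, ITGA6 and ITGA7 laminin receptors, and ITGA4, ITGA5, ITGA8, ITGA9 and ITGAV receptors for fibronectin and related glycoproteins. A laminin is a trimer of 1 alpha, 1 beta and 1 gamma chain, secreted and assembled into sheets. In melanoma the ITGAV and ITGB3 pair is known from the switch to invasive growth.

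Expression was given in FPKM (fragments per kilobase of gene length, scaled by a size for each library, so that levels of different genes can be compared). Libraries held from 14845976 to 16137093 fragments assigned to genes, recovered from the FPKM values. The sizes implied by the FPKM values were 1.033 to 1.036 times these fragments in DMSO libraries and 0.914 to 0.927 times in CuB libraries. Relative to DMSO, CuB values are thus higher than with equal fragment totals, and how the sizes were set is not given in the sources used here. Replicates of a group differed by more than counting noise (2.80 to 24.3 for chi-square over its degrees of freedom). The line's neural crest factor SOX10 averaged 197.8 FPKM in the DMSO libraries and 217.9 FPKM in the CuB libraries, while the pigment genes PMEL, MLANA, TYR and DCT were each below 1 FPKM on average. Summed markers of epithelial, fibroblast, endothelial and leukocyte cells reached at most 2.72 FPKM in any library. S100B, a neural crest marker, averaged 26.4 FPKM in the DMSO libraries and 6.64 FPKM in the CuB libraries. DMSO replicate 2 stood apart from the other DMSO libraries along the GC content of the transcripts, and CuB replicate 1 from the other CuB libraries in the opposite sense, as shown for the chains further on.

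The main comparison was CuB against DMSO. Of the 30 chains, 21 had a mean of at least 1 FPKM over the 6 libraries and were tested, with limma's moderated test on log2(FPKM + 1) and adjustment over all 13273 tested genes. In the integrins 2 of 15 tested chains rose and 7 fell. In the laminins 1 of 6 rose and 5 fell. For all tested genes together the share called was 38.6%, with 22.9% up and 15.6% down. The median log2 fold change was -0.23 over the 15 integrins and -0.53 over the 6 laminins, against 0.0548 over all tested genes. Called changes of at least 2-fold on the scale of FPKM + 1 were found in 5 integrins and 3 laminins, and in 7.24% of all tested genes. ITGA7, called as lower, fell 2.33-fold in mean FPKM but was not counted, as its log2 fold change on that scale was -0.72. Groups that did not overlap were found in 10 of the 15 integrins and in the 6 laminins, and in 51.5% of all tested genes. The 3 chains that rose were LAMB3, ITGA5 and ITGA2. The largest falls were those of ITGA9, ITGA10, ITGB3 and LAMA4. Every log2 fold change was taken from log2(FPKM + 1), so the change of a scarce gene is understated.

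**Figure D1:**
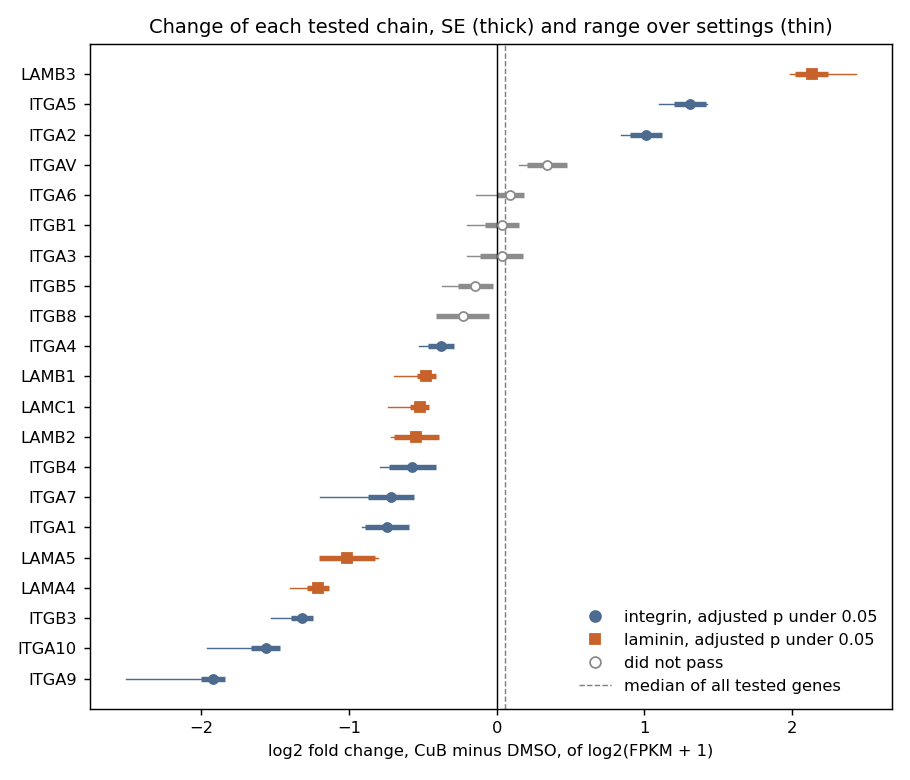
Log2 fold change, CuB minus DMSO, of the 21 tested chains. Points are the fitted values, thick bars 1 SE, thin lines the range over the alternative settings, open symbols chains that did not pass, and the dashed line the median of all tested genes. LAMB3 at 2.13 and ITGA9 at -1.92 are the ends of the range.

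Promoter windows from RefSeq (build GRCh38.p14, 250 bases before and 50 after each start) were available for 22 of the 30 chains, in 29 windows. ITGA3, ITGA7, ITGA9, ITGB2, ITGB3, ITGB4, LAMA1 and LAMC3 had none, so that ITGA9 and ITGB3, among the largest falls, were not searched. The windows were read because chains of the same protein complexes moved in opposite directions. They were searched on both strands for 8 short motifs. The AP-1 motif TGACTCA, or TGAGTCA on the other strand, was in 3 of the 29 windows, those of LAMB3, ITGA5 and LAMA3, and in 4.95% of all 35116 windows. LAMB3 and ITGA5 had the largest rises among the tested chains, and LAMA3, below the filter on low values, had lower levels with CuB. ITGA2, the other chain that rose, was searched and had no AP-1 motif. The motifs were chosen after the data were seen, and a link of motifs to changes was not tested. The part of each window before its start site follows, 5′ to 3′ on the gene's strand, with each AP-1 motif in capitals. The LAMB3 stretch, chr1:209651375-209651624 on the minus strand, belongs to 1 of 3 starts listed for the gene. The ITGA5 stretch, chr12:54419266-54419516 on the minus strand, runs on to the start site, which is the last base of the motif. The LAMA3 stretch, chr18:23872770-23873019 on the plus strand, belongs to a start inside the gene and holds the motif at 125 and 69 bases before it.
LAMB3: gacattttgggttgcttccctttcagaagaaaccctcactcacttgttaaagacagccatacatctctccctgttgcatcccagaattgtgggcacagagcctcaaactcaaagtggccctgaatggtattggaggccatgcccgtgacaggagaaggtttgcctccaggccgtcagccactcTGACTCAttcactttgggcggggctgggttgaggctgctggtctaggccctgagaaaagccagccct
ITGA5: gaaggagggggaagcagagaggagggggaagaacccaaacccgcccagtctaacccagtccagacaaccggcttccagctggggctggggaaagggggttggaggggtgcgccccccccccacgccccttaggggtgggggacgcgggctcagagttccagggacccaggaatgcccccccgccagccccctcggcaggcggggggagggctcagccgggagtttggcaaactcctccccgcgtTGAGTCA
LAMA3: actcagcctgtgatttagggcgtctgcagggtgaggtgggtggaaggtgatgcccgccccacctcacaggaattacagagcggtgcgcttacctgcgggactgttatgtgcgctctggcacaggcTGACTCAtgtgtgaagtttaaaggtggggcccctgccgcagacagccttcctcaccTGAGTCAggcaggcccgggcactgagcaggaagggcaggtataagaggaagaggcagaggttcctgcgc

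A match describes letters and is not evidence of binding, and gene-level FPKM does not tell which start was used. None of the 29 windows held the cyclic AMP response element TGACGTCA (in 1.85% of all windows), the TEAD motif ACATTCC (3.46%) or the NF-kB motif GGACTTTCC (0.37%). The C/EBP-ATF motif TGATGCAA was in the ITGB5 window (0.866% of all windows), the EGR motif GCGTGGGCG in the ITGB8 window (0.795%) and the E-box CACGTG in the ITGA6 window (7.26%). The M-box CATGTG was in windows of ITGB7 and LAMA3 (11.1%), and in LAMA3 it shares bases with an AP-1 motif. No match says only that these letters are not in the windows.

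Of the laminins, the ligands, LAMC1, LAMB1 and LAMA4 had the highest levels, and 5 of the 6 tested chains fell. LAMC1, the gamma chain of most laminins, was at 141.7, 132.3 and 140.7 FPKM with DMSO and at 93.5, 97.4 and 97.3 FPKM with CuB. LAMB1, the most abundant beta chain, was at 127.2, 118.4 and 125.2 FPKM with DMSO and at 88.5, 89.6 and 87.7 FPKM with CuB. LAMA4, the alpha chain of laminins of vessels and mesenchyme, was at 48.7, 45.1 and 49.4 FPKM with DMSO and at 20.3, 20.2 and 19.7 FPKM with CuB. These leading alpha, beta and gamma chains can form a single trimer, and in each of them every CuB library lay below every DMSO library. LAMA4 fell by 1.21 on the log2 scale (SE 0.0733, adjusted p = 4.96e-05), which is 2.38-fold in mean FPKM. LAMC1 and LAMB1 fell by 0.52 (SE 0.0653, adjusted p = 0.00119) and 0.48 (SE 0.0645, adjusted p = 0.00163). The levels of the alpha chain thus differed more between groups than those of its partners, and the difference between these falls was not tested.

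LAMA5, an alpha chain widespread in epithelial and vascular basement membranes, was at 9.04, 14.2 and 8.55 FPKM with DMSO and at 4.08, 4.50 and 5.31 FPKM with CuB. It fell by 1.01 (SE 0.188, adjusted p = 0.00595), and its highest value was that of DMSO replicate 2. LAMB2, the beta chain of synaptic and kidney laminins, was at 24.3, 29.9 and 21.1 FPKM with DMSO and at 14.2, 18.0 and 18.3 FPKM with CuB. Its groups did not overlap, and it fell by 0.54 (SE 0.152, adjusted p = 0.0287), but the call was lost without DMSO replicate 1 (adjusted p = 0.0748), CuB replicate 1 (0.074) or CuB replicate 2 (0.062) and without the filter on low values (0.0735).

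LAMB3, the beta chain of the laminin that anchors skin epithelium, went the other way. It was at 2.95, 3.95 and 3.09 FPKM with DMSO and at 16.7, 17.8 and 19.2 FPKM with CuB, so that the lowest CuB library was above the highest DMSO library several times over. The rise was 5.38-fold in mean FPKM and 2.13 on the log2 scale (SE 0.112, adjusted p = 2.80e-05). LAMB3 (ENSG00000196878) lies on chromosome 1 from 209614870 to 209652466 of GRCh38. LAMA3, the alpha chain that pairs with LAMB3 in that laminin, averaged under 1 FPKM and was not tested. It had 143, 164 and 151 fragments with DMSO and 44, 34 and 42 with CuB, a ratio of 3.55 of DMSO to CuB (exact 95% interval 2.90 to 4.37, counting error only). The 2 chains of the pair thus had opposite differences between the groups. Summed markers of keratinocytes and other epithelia (KRT5, KRT14, KRT1, EPCAM and CDH1) ranged from 0.863 to 1.31 FPKM with DMSO and from 1.55 to 2.72 FPKM with CuB. KRT14 made up most of that sum, KRT1 was at 0 in each library and CDH1 was near 0. Their part in the LAMB3 result was not tested.

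LAMA2, the alpha chain of muscle and nerve laminins, had 194, 182 and 192 fragments with DMSO and 54, 70 and 51 with CuB, a ratio of 3.02 (exact 95% interval 2.54 to 3.59). In the fit without the filter LAMA2 and LAMA3 passed as lower (adjusted p = 0.0139 and 0.0109). LAMA1, the alpha chain of the embryonic laminin, had 46 fragments in all with DMSO and 63 with CuB (ratio of CuB to DMSO 1.47, interval 0.992 to 2.20). LAMC3, a gamma chain, had 93 and 68 (0.787, interval 0.567 to 1.09). The intervals of LAMA1 and LAMC3 include equal levels.

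**Figure D2:**
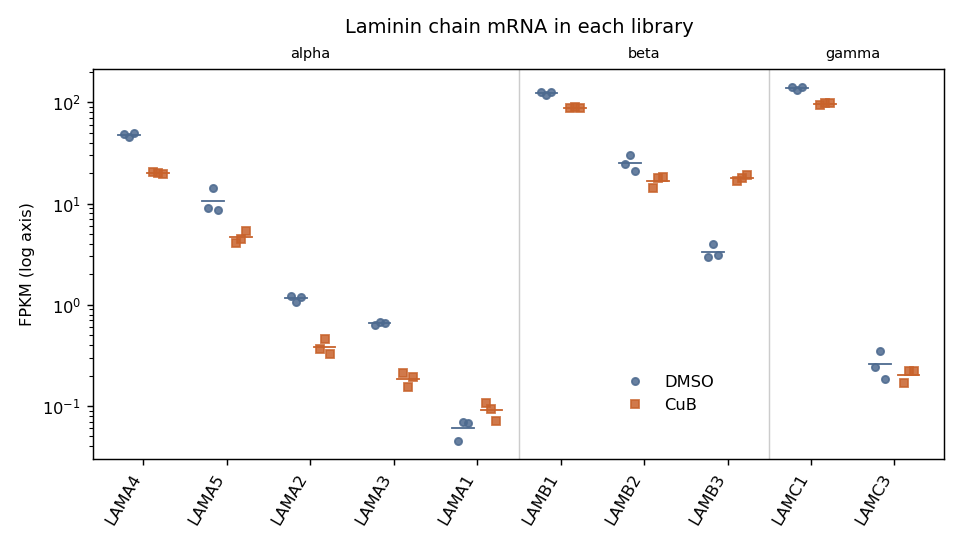
FPKM of the 10 laminin chains in each library, on a log axis. Circles are DMSO libraries, squares CuB libraries and short lines group means. LAMB3 is the chain whose CuB values, from 16.7 to 19.2 FPKM, lie far above its DMSO values, while LAMA4, LAMA5, LAMB1, LAMB2 and LAMC1 lie lower with CuB.

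Receptor chains for laminin divided by level. ITGA6 was the most abundant alpha chain, at 68.5, 58.9 and 68.5 FPKM with DMSO and at 72.9, 70.3 and 65.6 FPKM with CuB. ITGA3, second with DMSO and behind ITGA5 with CuB, was at 40.6, 52.7 and 38.0 FPKM with DMSO and at 39.2, 45.1 and 49.7 FPKM with CuB. In both the groups overlapped, with log2 fold changes of 0.09 (SE 0.0889, adjusted p = 0.44) for ITGA6 and 0.04 (SE 0.144, adjusted p = 0.868) for ITGA3, and the sign of each depended on the scaling. ITGA7, a laminin receptor chain of muscle, was low, at 1.79, 2.92 and 2.12 FPKM with DMSO and at 0.808, 1.07 and 1.06 FPKM with CuB. It fell by 0.72 (SE 0.154, adjusted p = 0.0108), and with a CuB mean of 0.978 FPKM it passed the filter through its DMSO values. ITGB4, the beta chain that joins ITGA6 at the attachment sites of epithelia, was at 3.19, 4.30 and 2.88 FPKM with DMSO and at 1.53, 2.26 and 2.19 FPKM with CuB. It fell by 0.57 (SE 0.159, adjusted p = 0.0279), a call that was lost when any library but DMSO replicate 3 was left out (adjusted p from 0.0504 to 0.071) and without the filter (0.0782). The abundant chains for laminin thus did not pass, and the calls were in the scarce ones.

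The chains of collagen receptors moved in both directions. ITGA2, which prefers fibrillar collagen, was at 11.4, 9.74 and 12.03 FPKM with DMSO and at 25.6, 23.0 and 21.2 FPKM with CuB. It rose 2.11-fold (log2 fold change 1.01, SE 0.109, adjusted p = 0.000606). ITGA1, which prefers the collagen of basement membranes, was at 21.8, 17.2 and 24.2 FPKM with DMSO and at 14.1, 11.3 and 11.04 FPKM with CuB, and fell by 0.74 (SE 0.149, adjusted p = 0.0081). Their order was thereby exchanged, since every DMSO library had more ITGA1 than ITGA2 and every CuB library more ITGA2 than ITGA1. These 2 genes are neighbours on chromosome 5, ITGA1 from 52787896 to 52959210 and ITGA2 from 52989326 to 53094779. ITGA10, a collagen receptor chain known from cartilage, was at 8.10, 8.65 and 7.58 FPKM with DMSO and at 1.81, 2.14 and 2.32 FPKM with CuB. It fell by 1.56 (SE 0.0998, adjusted p = 6.34e-05), 3.88-fold in mean FPKM, and lies on chromosome 1 from 145891208 to 145910189. ITGA11 was scarce, with 186 fragments in all with DMSO and 195 with CuB (ratio of CuB to DMSO 1.13, interval 0.918 to 1.39).

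Chains of receptors for fibronectin and related ligands contained both the largest rise and the largest fall of the integrins. ITGA5, the alpha chain of the main fibronectin receptor, was at 22.4, 28.1 and 21.9 FPKM with DMSO and at 57.7, 62.4 and 62.6 FPKM with CuB. It rose 2.53-fold (log2 fold change 1.31, SE 0.11, adjusted p = 0.000211) and lies on chromosome 12 from 54395261 to 54419460. ITGA9, a receptor chain for tenascin and other ligands, was at 8.59, 7.87 and 8.34 FPKM with DMSO and at 1.36, 1.47 and 1.51 FPKM with CuB. It fell by 1.92 (SE 0.084, adjusted p = 1.28e-05), 5.70-fold in mean FPKM, and lies on chromosome 3 from 37452115 to 37823514. In both genes the replicates of a group lay close together compared with the distance between the groups. ITGA4, which binds fibronectin and VCAM1, was at 10.1, 9.11 and 10.7 FPKM with DMSO and at 7.83, 7.26 and 7.25 FPKM with CuB. It fell by 0.38 (SE 0.0881, adjusted p = 0.0148), and the call was lost when DMSO replicate 1, DMSO replicate 3, CuB replicate 2 or CuB replicate 3 was left out, with adjusted p between 0.0532 and 0.069. ITGA8 had 17 fragments with DMSO and 1 with CuB (ratio of DMSO to CuB 15.8, interval 2.48 to 660.4).

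ITGAV and its beta partners did not move together. ITGAV was at 22.9, 19.0 and 26.2 FPKM with DMSO and at 32.4, 27.7 and 26.7 FPKM with CuB, which did not overlap but did not pass (log2 fold change 0.34, SE 0.134, adjusted p = 0.0832). It passed as higher after the GC correction (adjusted p = 0.00223), with or without the replicate block, and without DMSO replicate 3 (0.047). ITGB3, the beta chain known from platelets and invasive melanoma, was at 53.4, 56.6 and 52.5 FPKM with DMSO and at 20.4, 21.4 and 21.7 FPKM with CuB. It fell by 1.32 (SE 0.0726, adjusted p = 3.42e-05), 2.56-fold in mean FPKM, and lies on chromosome 17 from 47253846 to 47311816. Of its exon bases 51.6% are shared with AC068234.1, an annotated gene on the same strand that is listed at 0 in each library, and how shared fragments were counted is not given in the sources used here. ITGB5, another partner of ITGAV, was at 38.2, 45.6 and 35.0 FPKM with DMSO and at 32.2, 36.5 and 38.1 FPKM with CuB (log2 fold change -0.14, SE 0.117, adjusted p = 0.368), and passed as lower after quantile normalization (0.0355) and the GC correction (0.0231). ITGB8, which with ITGAV activates latent TGF-beta, was at 12.9, 10.1 and 14.2 FPKM with DMSO and at 13.2, 9.58 and 8.71 FPKM with CuB (log2 fold change -0.23, SE 0.176, adjusted p = 0.339), and passed as lower after the GC correction (0.028). ITGB6 was near 0, with 2 fragments with DMSO and 7 with CuB (ratio of CuB to DMSO 3.77, interval 0.717 to 37.1).

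ITGB1, the partner shared by most alpha chains, had the highest listed FPKM of the integrin chains in each group. It was at 79.97, 64.7 and 81.2 FPKM with DMSO and at 85.1, 74.2 and 71.8 FPKM with CuB, with overlapping groups (log2 fold change 0.04, SE 0.114, adjusted p = 0.828). Its sign also depended on the scaling. Its rank above ITGB3 holds for the listed FPKM, since how fragments in the shared ITGB3 exon bases were counted is not given. ITGB2, the beta chain of leukocytes, had 11, 23 and 9 fragments with DMSO and 39, 40 and 40 with CuB, a ratio of CuB to DMSO of 2.98 (interval 2.08 to 4.32), and passed as higher in the fit without the filter (adjusted p = 0.0322). The summed leukocyte markers PTPRC, CD3E and CD14 ranged from 0.138 to 0.415 FPKM with DMSO and from 0 to 0.248 FPKM with CuB, and their part in the ITGB2 values was not tested. ITGB7, also a leukocyte chain, had 18 fragments with DMSO and 23 with CuB (ratio of CuB to DMSO 1.37, interval 0.71 to 2.70). Of the ITGB7 exon bases 42.1% are shared with ZNF740 on the opposite strand, and the library kit does not mark strand.

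**Figure D3:**
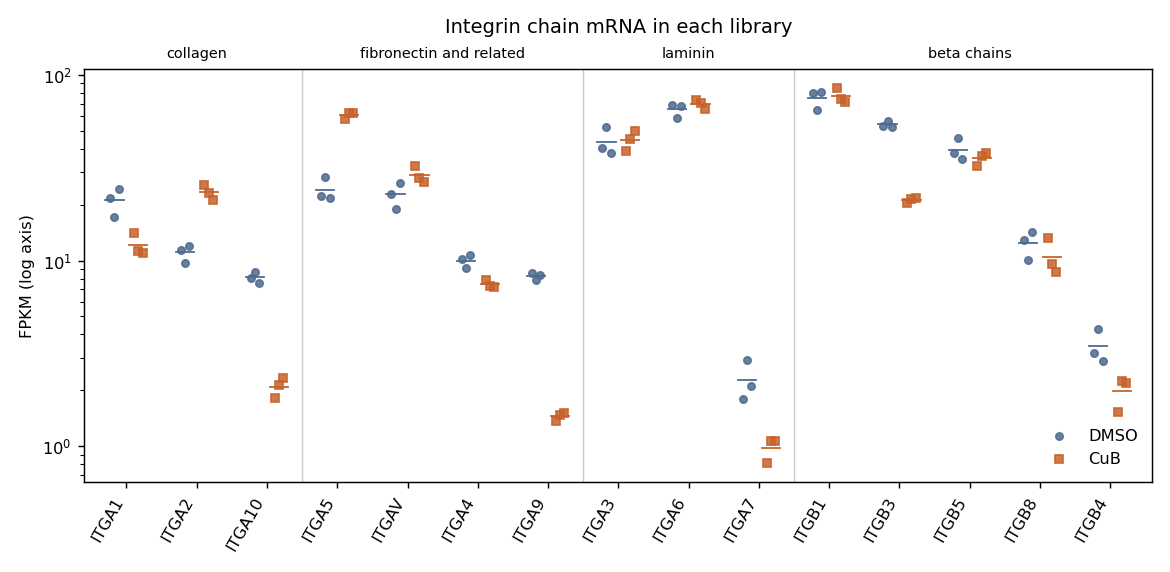
FPKM of the 15 tested integrin chains in each library, on a log axis and grouped by the usual ligand of the alpha chain. Circles are DMSO libraries, squares CuB libraries and short lines group means. ITGA5 and ITGA2 lie higher with CuB, ITGA9, ITGA10 and ITGB3 far lower, and ITGB1, ITGA3 and ITGA6 overlap.

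Shares of single chains in the summed level of their class were read next. The 12 alpha chains summed to 217.1 ± 2.64 FPKM in the DMSO libraries and 251.9 ± 2.51 FPKM in the CuB libraries (SD, n = 3 per group here and below), a ratio of CuB to DMSO of 1.16 that lay from 1.003 to 1.08 after rescaling to equal sums, quantile normalization or equal fragment totals. Within this sum ITGA5 held 11.1 ± 1.73% with DMSO and 24.2 ± 1.30% with CuB, which moved it from the third to the second place among the alpha chains. In DMSO libraries ITGA5, ITGAV and ITGA1 overlapped as neighbours in the order of levels, as did ITGA2 with ITGA4 and ITGA9 with ITGA10. In CuB libraries no neighbours among the alpha chains overlapped. ITGA2 held 5.09 ± 0.486% and 9.24 ± 0.791%, and ITGA1 9.70 ± 1.55% and 4.82 ± 0.623%. The share of ITGA9 went from 3.81 ± 0.149% to 0.575 ± 0.0354% and that of ITGA10 from 3.74 ± 0.291% to 0.83 ± 0.11%.

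The 8 beta chains summed to 185.1 ± 3.23 FPKM in the DMSO libraries and 146.8 ± 5.38 FPKM in the CuB libraries, and the share of ITGB3 in them was 29.3 ± 1.65% and 14.4 ± 0.976%. ITGB3 was the second beta chain in DMSO libraries and the third, behind ITGB5, in CuB libraries. The 5 laminin alpha chains summed to 60.2 ± 0.774 FPKM and 25.4 ± 0.26 FPKM, with LAMA4 at 79.3 ± 4.79% and 79.2 ± 2.05% of the sum, so that the alpha chains were lower with CuB without a shift of the share of LAMA4 beyond its spread. Among the 3 laminin beta chains LAMB3 went from 2.19 ± 0.358% to 14.5 ± 0.708%, and LAMB3 and LAMB2 overlapped in level in the CuB libraries. A share depends on the other chains in its sum, and none of these shares was given a test of its own. The place and share of ITGB3 also depend on how fragments in its shared exon bases were counted, which is not given.

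**Figure D4:**
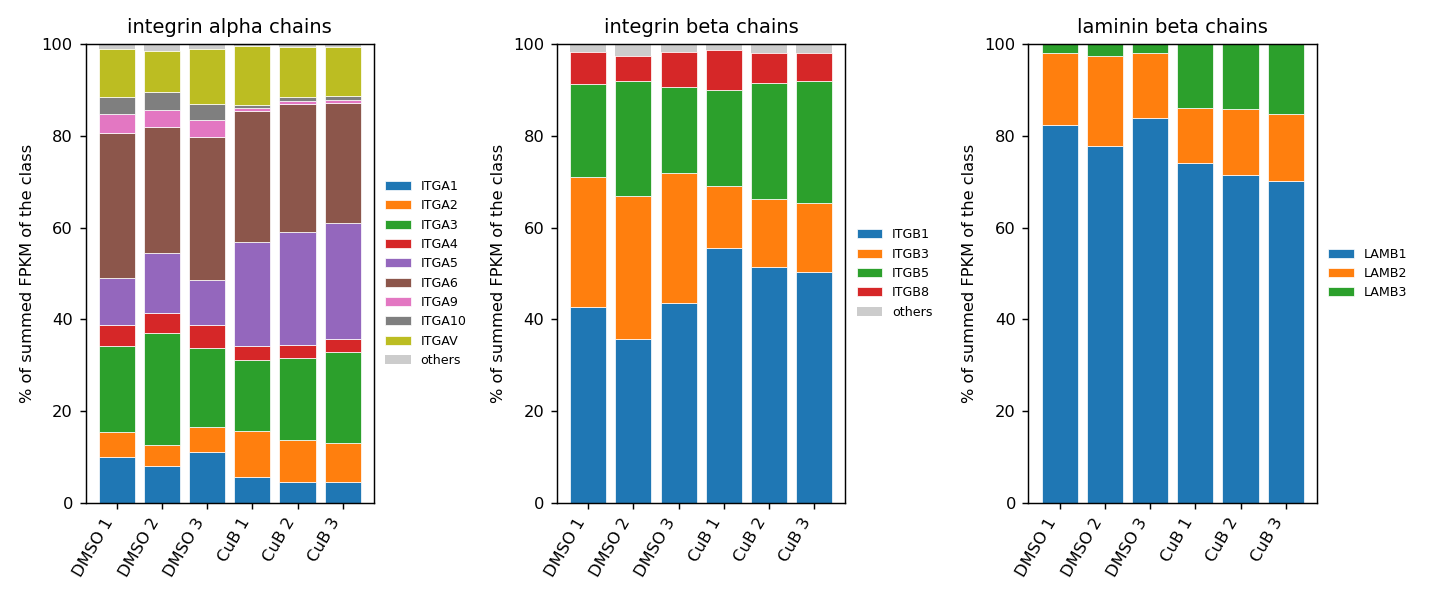
Share of each chain in the summed FPKM of its class, in percent, for each library, in the integrin alpha, integrin beta and laminin beta chains. Chains that stay under 3% in each library are pooled as others. The bands of ITGA5 and LAMB3 are wider and that of ITGB3 narrower in the CuB libraries.

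Within each group the chains followed the GC content of their transcripts. DMSO replicate 2 had the highest DMSO value in 10 of the 21 tested chains, whose longest transcripts had from 52.3% to 66.4% GC, and the lowest in the other 11, with 37.8% to 49.5% GC. It was 0.42 above its group mean on the log2 scale for LAMA5, with the most GC, and 0.26 below it for ITGB8, with the least. In CuB replicate 1 the order was opposite, with ITGB8 at 0.32 above its group mean and LAMA5 at 0.14 below. CuB replicate 1 had the highest CuB value in 8 chains, with 37.8% to 46.6% GC. The part of GC content in the results was not tested beyond the correction and the fits that leave a library out. After the GC correction all 15 called chains kept their call and direction. That correction called more genes in general, 7608 of 13273 tested genes against 5118 in the main fit. The calls were also kept by 14 of 15 chains without DMSO replicate 2, the exception being ITGB4, and by 13 of 15 without CuB replicate 1, the exceptions being ITGB4 and LAMB2.

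**Figure D5:**
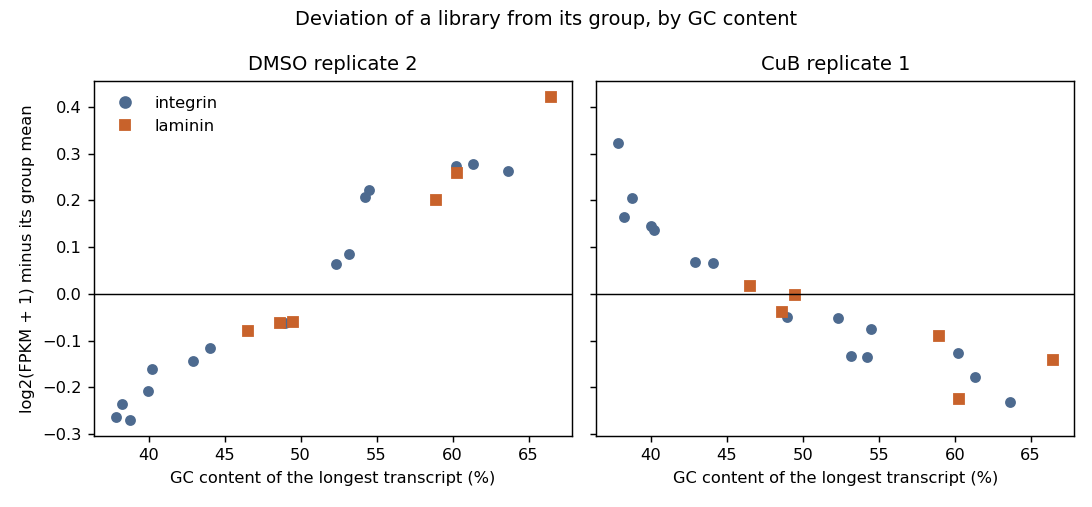
Deviation of DMSO replicate 2 and of CuB replicate 1 from the mean of their group, in log2(FPKM + 1), against the GC content of the longest transcript in percent. Each point is 1 of the 21 tested chains. Deviations go up with GC content in DMSO replicate 2, to 0.42 for LAMA5, and down in CuB replicate 1.

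Cytoplasmic proteins at the integrin tail, not all of which bind it directly, were read from a list of 22 adaptors. Of 18 tested, 8 rose and 1 fell, with a median log2 fold change of 0.30 against 0.0548 over all tested genes, of which 22.9% rose and 15.6% fell. ZYX, a focal adhesion protein that responds to tension, averaged 26.3 ± 6.10 FPKM in the DMSO libraries and 100.2 ± 9.92 FPKM in the CuB libraries, a rise of 1.91 on the log2 scale (adjusted p = 0.000215). FLNA, which crosslinks actin and binds beta chains, rose by 1.48 (adjusted p = 0.000614), BCAR1, a scaffold phosphorylated at adhesions, by 1.43 (0.00321) and VCL, vinculin, by 1.40 (5.29e-05). The other 4 that rose, named after their values were seen, were FERMT1 and FERMT2, kindlins that activate integrins, ACTN1 and PARVA, which links actin to adhesions. The call of PARVA was lost after rescaling to equal sums, quantile normalization or equal fragment totals (adjusted p from 0.0517 to 0.0969), with the replicate block (0.0545) and without CuB replicate 2 (0.0729). TNS3, a tensin, was the one that fell, by 0.91. TLN1, talin, which switches integrins on, was at 49.9 ± 4.12 and 52.9 ± 3.75 FPKM, and PTK2, the focal adhesion kinase, at 10.7 ± 1.01 and 11.6 ± 0.652 FPKM (adjusted p = 0.513 and 0.431), both named after their values were seen.

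Partners of laminins in the basement membrane were read from a list of 14. Of 10 tested, 0 rose and 4 fell, with a median of -0.16 against 0.0548 over all tested genes. The share called over all tested genes was 38.6%, so the number called among these partners was near the background. NID1, nidogen, which links laminin to collagen IV, averaged 70.5 ± 2.77 FPKM in the DMSO libraries and 45.8 ± 2.50 FPKM in the CuB libraries, and fell by 0.61 (adjusted p = 0.00111). COL4A5, a collagen IV chain, fell by 0.92 (adjusted p = 0.00171), NTN4, a laminin-related netrin, by 0.74 (0.0127) and HSPG2, perlecan, by 0.67 (0.0425). COL4A5 averaged 1.64 FPKM in the DMSO libraries and 0.399 FPKM in the CuB libraries, and NTN4 2.31 and 0.999 FPKM. Both were thus under 1 FPKM with CuB and passed the filter through their DMSO values. The call of HSPG2 was lost without the filter (0.110) and without DMSO replicate 1, DMSO replicate 2, CuB replicate 1 or CuB replicate 2 (0.0845 to 0.0997). The directions also depended on the setting. After the GC correction 3 members rose and 5 fell, while of all 13273 tested genes 4016 rose and 3592 fell under that correction. When any DMSO library was left out, COL4A5 was under the filter and no longer tested, which left 9 tested members. Without DMSO replicate 2 there were 2 members that rose and 2 that fell. Without DMSO replicate 1, where NTN4 had an adjusted p of 0.0508, 1 was called, NID1.

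Other integrin ligands moved both ways, as 7 of 15 tested rose and 4 fell, with a median of 0.25, of 29 listed. Over all tested genes 38.6% were called, with 22.9% up and 15.6% down. FN1, fibronectin, the ligand of the ITGA5 receptor, averaged 15.3 ± 1.01 FPKM in the DMSO libraries and 49.0 ± 1.59 FPKM in the CuB libraries, and rose by 1.62 (adjusted p = 2.16e-05). ICAM1, a ligand of leukocyte integrins, rose by 1.98, THBS1, thrombospondin, by 1.43 and COL6A3, a collagen VI chain, by 1.38. In mean FPKM these rises were 4.06-fold, 2.77-fold and 7.91-fold. COL6A3 averaged 0.302 FPKM in the DMSO libraries and 2.38 FPKM in the CuB libraries, and passed the filter through its CuB values. Of the ligands that fell, named after their values were seen, TNC, tenascin C, fell by 0.62, SPP1, osteopontin, by 1.07, FBN1, fibrillin, by 0.75 and MFGE8 by 0.43. SPP1 averaged 2.31 FPKM in the DMSO libraries and 0.568 FPKM in the CuB libraries, and passed the filter through its DMSO values. The call of MFGE8 was lost when any of the 6 libraries was left out (adjusted p from 0.0594 to 0.094) and without the filter (0.0891). ITGA5 and FN1 were thus both higher with CuB, and ITGA9 and its ligands TNC and SPP1 all lower, each by its own test. ITGA4, which also binds fibronectin, went against FN1 and fell by 0.38. ITGA9, listed above with the chains for fibronectin and related glycoproteins, also went against FN1 and fell by 1.92. ITGB3, a partner of ITGAV from that list, fell by 1.32. These pairs were picked after their values were seen, and a match of receptors and ligands was not tested.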

How the data were processed

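The authors deposited FPKM values per gene for 3 DMSO and 3 CuB libraries. They used build GRCh38, as listed in the submitters' processing notes, while the aligner, counter and scaling were not given in the sources used here. The 58735 genes had the identifiers and coordinates of GENCODE 29, which gave exons and GC content (13265 of 13273 tested genes). Per the labels' protocols the library kit was TruSeq RNA, which does not mark strand. No column of sample values was left unused.

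Values above 0 were whole fragments within 0.01, beside the rounding of the table, once multiplied by gene length, which gave 14845976 to 16137093 fragments per library. Values were tested as log2(FPKM + 1) for genes that averaged 1 FPKM or more, without a replicate block, using limma 3.58.1 in R 4.3.3 with an intensity trend, on 4 residual degrees of freedom. Benjamini-Hochberg adjustment covered all tested genes, with calls under 0.05. The step was tested on simulated data. Scarce chains were described by fragments with exact 95% intervals for counting error. Python 3.11.15, scipy 1.17.1 and matplotlib 3.10.9 were used for counts and plots.

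The members, lists, settings and tests were chosen with earlier results of these data known. Named genes were all 30 members and up to 4 of the largest called genes of each partner list, and others are marked. A marker of the leukocyte list is not reported here. The promoter motifs were chosen after the data were seen. The 20 alternatives covered the pseudocount, the filter, 4 scalings, limma options, voom on recovered fragments, a GC correction (lowess, span 0.3), the replicate block and leaving out each library.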

Additional observations from a re-analysis of the deposited data

How the results depend on the processing

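Of the 15 called chains, 12 kept their call and direction in each of the 20 alternatives that tested them, and the others, ITGA4, ITGB4 and LAMB2, lost it as given above. Among genes of at least 5 FPKM, 12 of the 15 could be tested and 12 kept the call. The number of changed integrins was within 1.5 times the number given above in each alternative, and so was that of laminins. The number of changed genes in all was 3250 among genes of at least 5 FPKM, where fewer genes are tested, and from 3264 to 5725 when a library was left out, the lowest without CuB replicate 2. It was 7608 with the GC correction and 7191 when the replicate block was added to it, against 5118 in the main fit. On the deposited scale 59.5% of all changed genes were higher in CuB libraries, against 46.7% after rescaling to equal sums, 47.1% after quantile normalization, 39.3% with equal fragment totals and 69.7% among genes of at least 5 FPKM. Equal fragment totals moved the median of all genes by -0.139 on the log2 scale. Basement membrane partners numbered 2 changed genes among those of at least 5 FPKM, 8 with the GC correction, 7 when the replicate block was added to it, and from 1 to 4 when a library was left out, the lowest without DMSO replicate 1. The cause was not tested.

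3 of the chains that did not pass changed sign, and none of these values passed. ITGA3 was at -0.066 after rescaling to equal sums, -0.20 after quantile normalization, -0.13 with equal fragment totals and -0.041 with the GC correction, with or without the block, and from -0.057 to 0.17 when a library was left out. ITGA6 was at -0.0086, -0.14 and -0.070 under those 3 rescalings. ITGB1 was at -0.066, -0.20 and -0.13 under them, at -0.023 with the GC correction, with or without the block, and from -0.068 to 0.093 when a library was left out.

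Same-numbered libraries did not all deviate alike from their group means. Deviations from the group means of same-numbered libraries correlated at 0.269, 0.119 and -0.357 across 13273 genes, and not every library correlated best with its own number. The deviations also followed GC content, with correlations of -0.384, 0.712 and -0.570 in DMSO replicates 1, 2 and 3. In CuB replicates 1, 2 and 3 these correlations were -0.534, 0.129 and 0.507. The deviations therefore cannot decide whether same-numbered libraries were prepared in pairs. With the replicate block 4443 genes changed, and of the chains all 15 kept their call.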
